A study of Mus musculus with 2 samples.

Results

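The 36 genes described here encode the steps of glycolysis and the transcriptional response to low oxygen. They were chosen by symbol as members of these pathways, with earlier results of these data known, and all 36 were found among the 31192 gene symbols outside the mitochondrial genome that the files list. Glycolysis splits glucose into pyruvate in the cytosol, and lactate dehydrogenase with a lactate exporter carries the product out of the cell. When oxygen falls, prolyl hydroxylases of the Egln family stop marking the transcription factor subunit Hif1a for destruction, and Hif1a then raises glucose transporters, most glycolytic enzymes and a set of targets such as Vegfa, Bnip3 and Egln3 itself. In tumors, macrophages and neutrophils of poorly perfused regions are known to carry this response, and activated macrophages, T cells and dendritic cells also raise glycolysis when oxygen is ample.

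The cells came from B16-F10 melanoma, a mouse skin tumor line, grown for 10 days after subcutaneous injection of 200000 cells into C57BL/6J mice of 2 genotypes, Irg1+/+ and Irg1-/-. Irg1, listed in the files as Acod1, encodes the enzyme that makes itaconate. For each genotype, 100 mm3 pieces of the tumors of 3 mice were pooled, Cd45+ immune cells were sorted, and 1 whole-transcriptome library was made on the BD Rhapsody microwell system, which counts unique molecular identifiers (UMIs) from the 3′ end of transcripts. The Irg1+/+ library held 6408 cells with 43617546 UMIs and the library labelled Irg1-/- held 5896 cells with 36432067 UMIs, of which 6284 and 5794 cells were kept, with medians of 4528 and 4594.5 UMIs per cell. Because each genotype is 1 library of pooled mice, no test between genotypes was possible, and every interval below is a 95% interval for counting error alone.

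Acod1 was measured first as a check of the labels. Neutrophils, its strongest source, had 2692 CPM (95% interval 2376 to 3040) of Acod1 in the Irg1+/+ library and 2090 CPM (1923 to 2268) in the other, where CPM is the UMIs of a gene per 1000000 UMIs of a class of cells. Monocytes and macrophages had 129 CPM (124 to 135) and 144 CPM (138 to 150) of Acod1. Acod1 UMIs were thus abundant under both labels, somewhat fewer in neutrophils and somewhat more in monocytes and macrophages of the second library. A count summed over a gene does not tell its exons apart, and the second library is therefore named by its label throughout. The libraries shared 36 cell barcodes.

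Cells were placed in classes by marker genes, none of which was among the 36. Monocytes and macrophages numbered 2186 and 2180 cells, in the order Irg1+/+ then Irg1-/- used from here on. Of these, 928 and 829 had abundant C1qa, C1qb and C1qc and are called C1q macrophages (C1qa at 1153 and 1115 CPM, against 84.9 and 84.6 CPM in Ly6c2 monocytes), while 859 and 1084 were Ly6c2 monocytes (Ly6c2 at 2325 and 4039 CPM). Mgl2 macrophages numbered 166 and 105, Mrc1-high macrophages 136 and 74, and MHC class II-high macrophages 232 and 273. The C1q macrophages left after the gates on cycling genes, Lyve1, Mgl2, Mrc1 and MHC class II, applied in that order, numbered 297 and 294 and are called remaining C1q macrophages (C1qa at 1060 and 1040 CPM). Neutrophils numbered 54 and 150 cells and were shallow, with medians of 1645.5 and 1723.5 UMIs. Their defining markers S100a9 (6582 and 10150 CPM), Cxcr2 (1475 and 1641 CPM) and Csf3r (1516 and 1424 CPM) were abundant. Mature dendritic cells, defined by Ccr7 (2213 and 2426 CPM) and Fscn1 (5279 and 4779 CPM), numbered 414 and 347, and T cells 1313 and 722. Eosinophils, marked by Ccr3 (928.6 and 1260 CPM), were few, at 46 and 85 cells with medians of 884 and 1034 UMIs.

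Positions of all 36 genes were found in GENCODE on GRCm38, where Aldoa carries 2 gene identifiers whose UMIs were added. The genes that the results turn on lie apart in the genome. Egln3, a prolyl hydroxylase that is itself a Hif1a target, lies at chr12:54178981-54203860 on the minus strand. Hilpda, a lipid droplet protein induced by hypoxia, lies at chr6:29272488-29275446 on the plus strand, and Vegfa, the endothelial growth factor, at chr17:46016993-46032369 on the minus strand. Slc2a1, the glucose transporter Glut1, lies at chr4:119108711-119137983 on the plus strand. Pfkfb3, which makes the allosteric activator of phosphofructokinase, lies at chr2:11471433-11554077 on the minus strand. Gapdh, Aldoa, Eno1, Ldha, Pgk1, Tpi1 and Pkm have processed copies elsewhere in the mouse genome, so their counts could be split or inflated by the mapping.

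Promoters were read because many of these genes moved together below. Hif1a with its partner binds the core letters ACGTG or GCGTG, and both were searched on both strands in 300 bases around each RefSeq start (250 before, 50 after, build GRCm38.p6), taking every listed promoter of a gene. A promoter was matched for 33 of the 36 genes, all but Ero1l, Bnip3l and Ndrg1. Either motif was present for 31 of the 33 genes (93.9%), against 46.7% of all 27025 genes with a promoter and 67.9% of the 8880 such genes with enough UMIs in C1q macrophages and Ly6c2 monocytes of the Irg1+/+ library to be counted. ACGTG alone was present for 24 of the 33 (72.7%), against 21.8% and 30.1%. Gpi1 and Tpi1 were the genes of the 33 with neither motif. Because the genes were chosen as members of pathways that Hif1a raises, a high share follows in part from that choice. A gene with several listed promoters also had several windows in which to match. The motifs are matches of letters in a window, not sites shown to be bound. Of these, 4 promoters are printed 5′ to 3′ as the 250 bases before the start, with the motifs on either strand in capitals, to show a responsive hydroxylase, a target with clustered motifs, a glycolytic enzyme and a hexokinase that did not pass the limit of 1.5-fold in macrophages or monocytes rich in the other glucose entry genes. They were chosen after the values were seen. The ACGTG motif within CACGTG also matches on the opposite strand and counts on each.
Egln3 promoter, chr12:54203875-54204124, minus strand: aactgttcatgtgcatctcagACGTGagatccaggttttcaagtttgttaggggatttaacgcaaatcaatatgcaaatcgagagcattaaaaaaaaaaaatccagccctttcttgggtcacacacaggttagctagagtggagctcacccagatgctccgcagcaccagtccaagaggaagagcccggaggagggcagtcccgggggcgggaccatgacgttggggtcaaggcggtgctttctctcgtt
Bnip3 promoter, chr7:138909507-138909756, minus strand: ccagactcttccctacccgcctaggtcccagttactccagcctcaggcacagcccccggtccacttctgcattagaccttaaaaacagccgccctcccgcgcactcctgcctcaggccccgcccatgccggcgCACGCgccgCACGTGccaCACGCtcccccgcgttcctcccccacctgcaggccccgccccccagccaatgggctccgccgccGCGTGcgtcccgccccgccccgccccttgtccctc
Pgk1 promoter, chrX:106186850-106187099, plus strand: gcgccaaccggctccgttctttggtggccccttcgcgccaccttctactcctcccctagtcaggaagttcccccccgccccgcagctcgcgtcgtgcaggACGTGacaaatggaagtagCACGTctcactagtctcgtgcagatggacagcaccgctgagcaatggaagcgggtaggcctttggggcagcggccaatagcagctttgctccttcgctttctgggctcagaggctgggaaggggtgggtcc
Hk3 promoter, chr13:55021386-55021635, minus strand: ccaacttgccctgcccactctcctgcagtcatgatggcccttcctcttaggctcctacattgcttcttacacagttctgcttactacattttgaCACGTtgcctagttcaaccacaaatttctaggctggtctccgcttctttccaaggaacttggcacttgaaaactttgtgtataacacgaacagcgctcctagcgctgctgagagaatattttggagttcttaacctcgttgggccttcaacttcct
Within these windows Bnip3 had 5 matches, Pgk1 had 2, and Egln3 and Hk3 had 1 each, so the Hk3 promoter held as many matches as that of Egln3.

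Across 21 classes of immune cells, the 36 genes together were most abundant in neutrophils and in some macrophages. Their summed level was 13225 and 13788 CPM in neutrophils, 13827 and 10529 CPM in remaining C1q macrophages and 12542 and 11234 CPM in Mgl2 macrophages. It was 11046 and 11138 CPM in regulatory T cells, 11020 and 10692 CPM in cycling T cells and 10395 and 10170 CPM in T cells as a whole. C1q macrophages as a whole had 11360 and 9411 CPM, Ly6c2 monocytes 9783 and 7710 CPM, mature dendritic cells 6643 and 6615 CPM, and B cells 4663 and 4601 CPM. Neutrophils were the highest class for 12 genes of the Irg1+/+ library and for 15 of the library labelled Irg1-/-. Their interval overlapped that of the second class for 9 of the 12 and 8 of the 15, so most of these ranks lay within counting error. Remaining C1q macrophages were highest for 10 genes of the first library, 8 of them with overlap, and mature dendritic cells for 3 and 4. The highest class was the same in both libraries for 18 of the 36 genes.

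**Figure D1:**
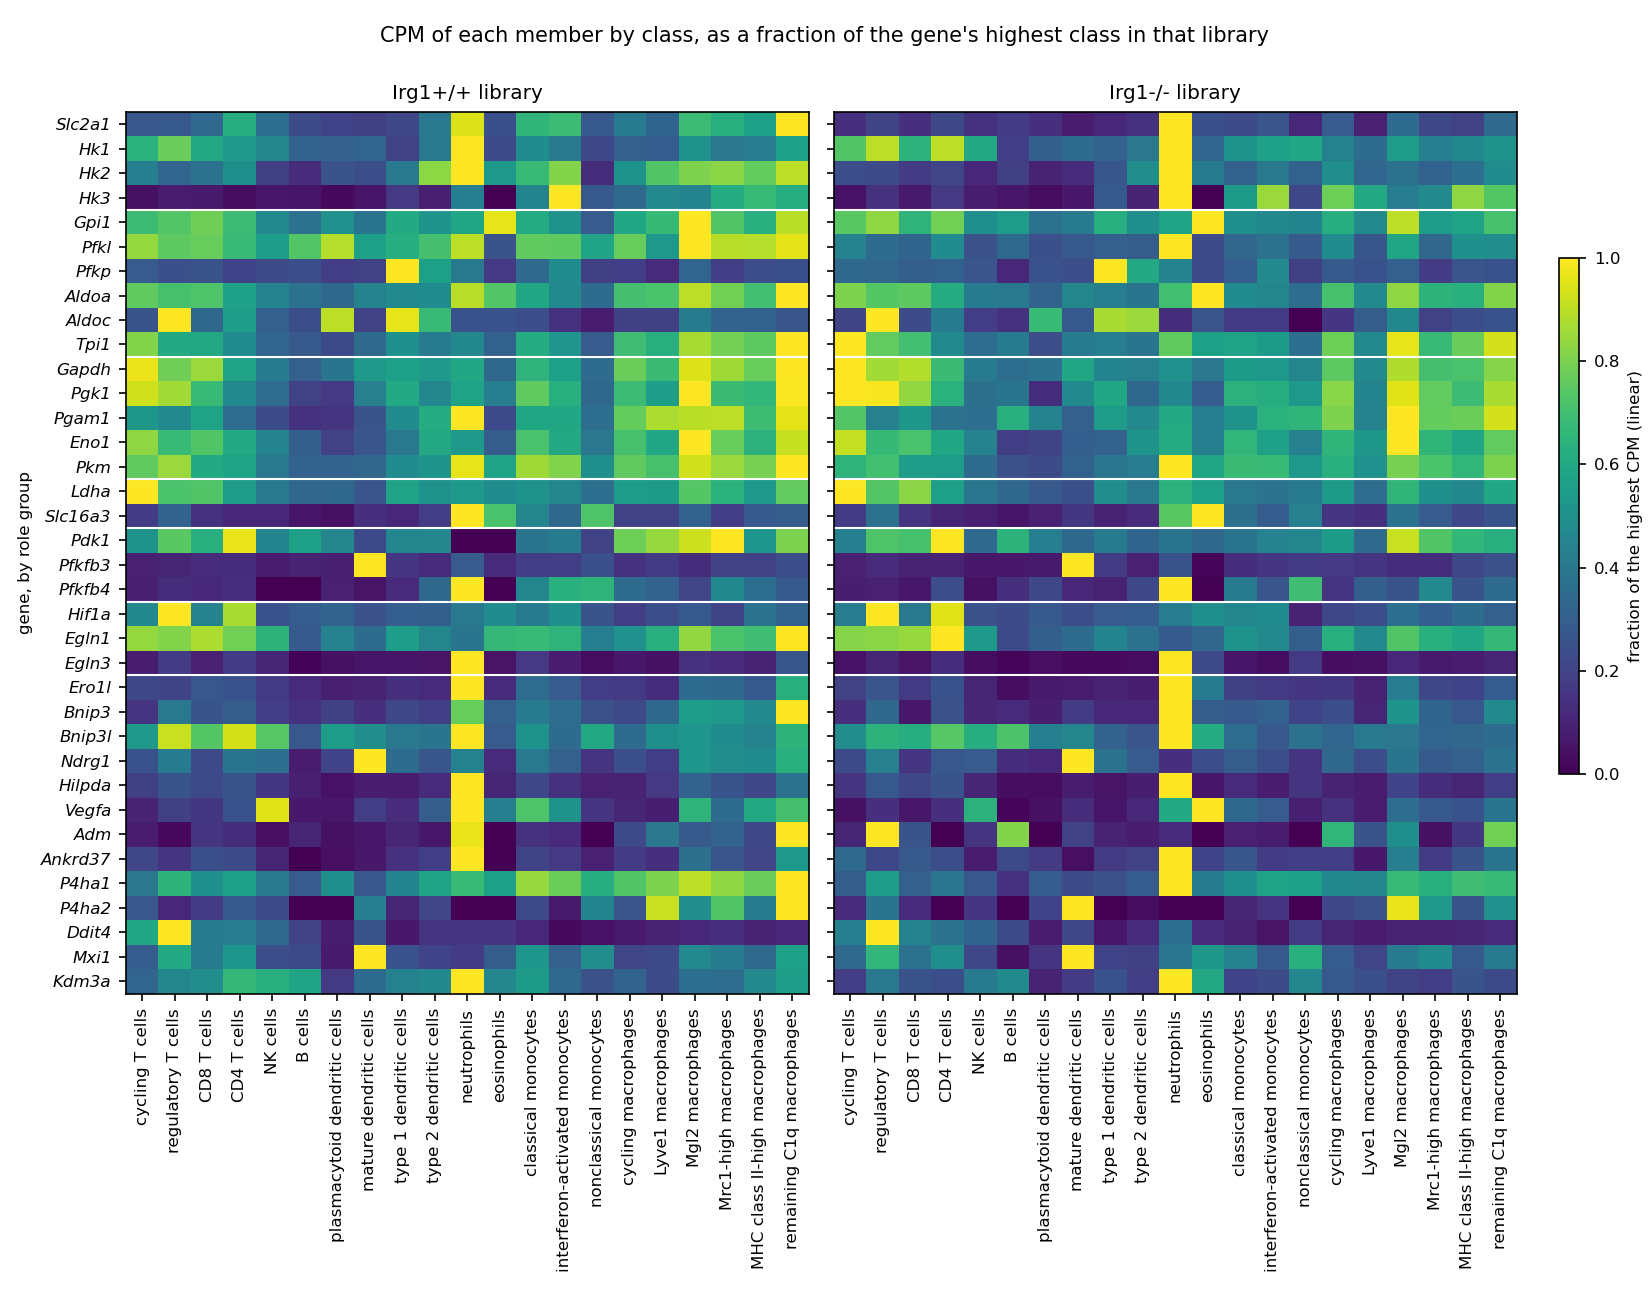
Level of each of the 36 genes (rows, grouped by role) in the main classes of cells (columns) of the 2 libraries, as a fraction of the gene's own highest class in that library. Egln3, Hilpda and Ero1l are highest in neutrophils of both libraries and Pfkfb3, Ndrg1 and Mxi1 in mature dendritic cells, while the glycolysis rows peak in several classes, among them Mgl2 and remaining C1q macrophages and cycling T cells.

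Egln3 had a steep order. It stood at 774 CPM (609 to 970) in neutrophils, 206 CPM (188 to 226) in remaining C1q macrophages, 111 CPM in Mgl2 macrophages, 82.5 CPM in NK cells and 6.54 CPM in B cells of the Irg1+/+ library. In the library labelled Irg1-/- the same classes had 946 CPM (834 to 1067), 98.3 CPM, 107, 35.8 and 18.1 CPM, and eosinophils came second at 208 CPM (125 to 325). Neutrophils lay clear of the class below them in each library. Mrc1-high macrophages had 94.0 and 68.3 CPM, MHC class II-high macrophages 73.0 and 73.6 CPM, and C1q macrophages as a whole 110 and 80.3 CPM. Cells with an Egln3 UMI made up 42.6% (29.2 to 56.8) and 51.3% (43 to 59.6) of neutrophils and 37.5% and 28% of the deeper C1q macrophages, against 1.69% (0.0429 to 9.09) and 3.17% of B cells. With every cell thinned to 2000 UMIs, 15.2% and 11.5% of C1q macrophages kept an Egln3 UMI, and 33.3% and 56% of the 12 and 50 neutrophils that were deep enough. At equal depth neutrophils again had the larger share, on few cells in the first library.

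Hilpda was also highest in neutrophils, at 1186 CPM (979 to 1424) and 1420 CPM (1283 to 1568). It stood at 449 and 264 CPM in remaining C1q macrophages, 308 and 393 CPM in regulatory T cells and 313.5 and 203 CPM in C1q macrophages as a whole. Regulatory T cells thus came second for Hilpda in the library labelled Irg1-/-, where eosinophils came second for Egln3. Slc2a1 was level between neutrophils and remaining C1q macrophages of the Irg1+/+ library, at 320 CPM (217 to 454) and 338 CPM (314 to 363). Neutrophils led in the second library, at 627 CPM (537 to 727) against 216 CPM (198 to 235). Mgl2 macrophages had 231 and 219 CPM of Slc2a1, and mature dendritic cells 63.6 and 47.8 CPM. A Slc2a1 UMI was found in 57.5% and 51.1% of C1q macrophages, and in 28.2% and 23.8% when thinned, against 16.9% and 23.8% of B cells. Vegfa was high in neutrophils, at 578 CPM (436 to 750) and 489 CPM (410 to 579), and in NK cells, at 550 CPM (508 to 594) and 515 CPM (484.5 to 547), with overlapping intervals in each library. Eosinophils had 248 CPM (128 to 433) and 799.7 CPM (627 to 1006) of Vegfa, the highest level of the second library. Ly6c2 monocytes had 395 and 256.5 CPM, C1q macrophages 286 and 233 CPM, and B cells 39.2 and 12.1 CPM. A Vegfa UMI was found in 60.7% and 53.2% of NK cells, 54% and 49.8% of C1q macrophages, and 8.47% and 3.17% of B cells.

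Single genes were highest in other classes. Pfkp, the platelet isoform of phosphofructokinase, was highest in type 1 dendritic cells, at 738 CPM (706 to 772) and 634.5 CPM (593 to 678), with type 2 dendritic cells next at 419 and 383 CPM. Pfkfb3 was highest in mature dendritic cells, at 685 CPM (653 to 718) and 793 CPM (757 to 831), and neutrophils came next at 196 and 206.5 CPM. Both genes therefore had a dendritic class well clear of all others in each library.

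Classes of T cells held the highest level of Hif1a and of several other genes. Hif1a was highest in regulatory T cells, at 813 CPM (763 to 865) and 704 CPM (632.5 to 781), and CD4 T cells followed at 710 and 672 CPM, with overlapping intervals. Regulatory T cells also had the highest Aldoc, an aldolase isoform, at 82.1 and 83.0 CPM, with type 1 dendritic cells next at 79.2 and 72.5 CPM and overlapping intervals, and the highest Ddit4, an inhibitor of mTOR signaling, at 268 and 350 CPM. The order of Hif1a transcripts thus differed from that of Egln3 and Hilpda, which were highest in neutrophils. Ldha, lactate dehydrogenase A, was highest in cycling T cells, at 1649 CPM (1612 to 1686) and 1681 CPM (1637 to 1725), clear of the next class, which was remaining C1q macrophages at 1251 CPM in the Irg1+/+ library and CD8 T cells at 1388 CPM in the other. Over CD8 T cells, cycling T cells had log2 ratios of 0.46 (0.39 to 0.52) and 0.28 (0.19 to 0.36) for Ldha, under 1.5-fold in both libraries. Hk3, a hexokinase of myeloid cells, was low in lymphocytes, at 6.99 and 6.72 CPM in T cells. It stood at 65.7 and 65.0 CPM in C1q macrophages, 51.6 and 94.2 CPM in neutrophils, and 119 CPM (98 to 144) and 80.0 CPM in interferon-activated monocytes.

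The first comparison asked whether the genes moved together from cell to cell. In C1q macrophages thinned to 2000 UMIs, cells were ranked by the summed UMIs of the other genes of the same role, and the top 10% (72 and 70 cells) was set against the other 652 and 632. A gene was counted as higher or lower when its CPM differed at least 1.5-fold and the interval of the ratio left out 1, over genes with at least 20 UMIs in both groups together. Of the 34 genes counted, 24 and 29 were higher in the top 10% and 0 lower, with 22 higher in both libraries. The median log2 ratios were 1.01 and 1.12. The share of all genes outside each group that was higher in the top 10% of cells by all genes of the role was, in the Irg1+/+ library, 4.21% for glucose entry, 3.92% for upper glycolysis, 3.42% for lower glycolysis, 3.07% for lactate, 2.6% for flux regulators, 4.27% for oxygen sensing and 5.74% for hypoxia targets. In the library labelled Irg1-/- it was 4.29%, 4.59%, 3.95%, 3.68%, 2.21%, 3.59% and 6.55% in the same order. These genes share cells and depth, so their ratios are not independent of each other. Ties at the limit, broken at random, were common where few genes ranked the cells, with a median of 21.5 and 19 tied cells per gene and up to 156 and 649. The 649 were for Pfkfb3 in the library labelled Irg1-/-, where most cells had 0 UMIs of the other flux regulators and part of the top 10% was filled at random, and 28 genes were higher there without it. Pfkfb4 and P4ha2 had too few UMIs to be counted.

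Of the 12 hypoxia targets counted, 11 were higher in each library. They were ranked by 12 other genes and the remaining roles by 1 to 5, which limits comparison between roles. Ero1l stood at 896 CPM in the top 10% and 181 CPM in the other cells of the Irg1+/+ library, and at 893 and 117 CPM in the other, log2 ratios of 2.31 (1.99 to 2.62) and 2.93 (2.58 to 3.28). Adm stood at 174 against 24.5 CPM and 129 against 5.54 CPM, log2 ratios of 2.83 (2.01 to 3.62) and 4.48 (3.21 to 6.04). Ndrg1, Bnip3, Hilpda and Mxi1 had log2 ratios of 2.04 to 2.31 and 2.36 to 2.78. Macrophages rich in some of the targets thus had several times more of each of these others. The ranking pooled the narrower classes of C1q macrophages, whose levels of these genes differed. Their shares in the top 10% were not read, and their part was not tested. The same holds for the Ly6c2 monocytes and T cells below. Vegfa stood at 944 against 278 CPM and 1329 against 186 CPM, log2 ratios of 1.77 (1.47 to 2.05) and 2.84 (2.55 to 3.12).

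Of the 17 genes of glucose entry, glycolysis and lactate, 11 and 13 were higher, 10 of them in both libraries, and all 5 lower glycolysis genes (Gapdh, Pgk1, Pgam1, Eno1 and Pkm) were among the 10. Gapdh, glyceraldehyde-3-phosphate dehydrogenase, had log2 ratios of 0.81 (0.67 to 0.95) and 0.92 (0.76 to 1.07). Slc2a1 stood at 521 against 205 CPM and 321 against 186 CPM, log2 ratios of 1.35 (0.96 to 1.72) and 0.80 (0.30 to 1.25). Tpi1, which interconverts the 2 triose phosphates, had log2 ratios of 1.06 and 1.31, and Aldoa, the aldolase that makes them, of 0.89 and 1.20. Ldha did not reach 1.5-fold when ranked by its lactate partner Slc16a3, at 0.34 (0.10 to 0.56) and 0.39 (0.14 to 0.63). Hk3 ranked by the other glucose entry genes gave 0.45 (−0.56 to 1.25) and −0.36 (−1.96 to 0.72), so that it did not pass the limit in either library. Pfkp, ranked by the 5 other upper glycolysis genes, gave −0.17 (−0.95 to 0.46) in the Irg1+/+ library and was higher in the other, at 0.74 (0.17 to 1.24). In oxygen sensing, Egln3 had log2 ratios of 0.79 (0.16 to 1.34) and 1.17 (0.51 to 1.75), Egln1, the main hydroxylase of Hif1a, of 1.12 and 0.97, and Hif1a itself of 0.52 (0.04 to 0.95) and 0.82 (0.37 to 1.22).

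**Figure D2:**
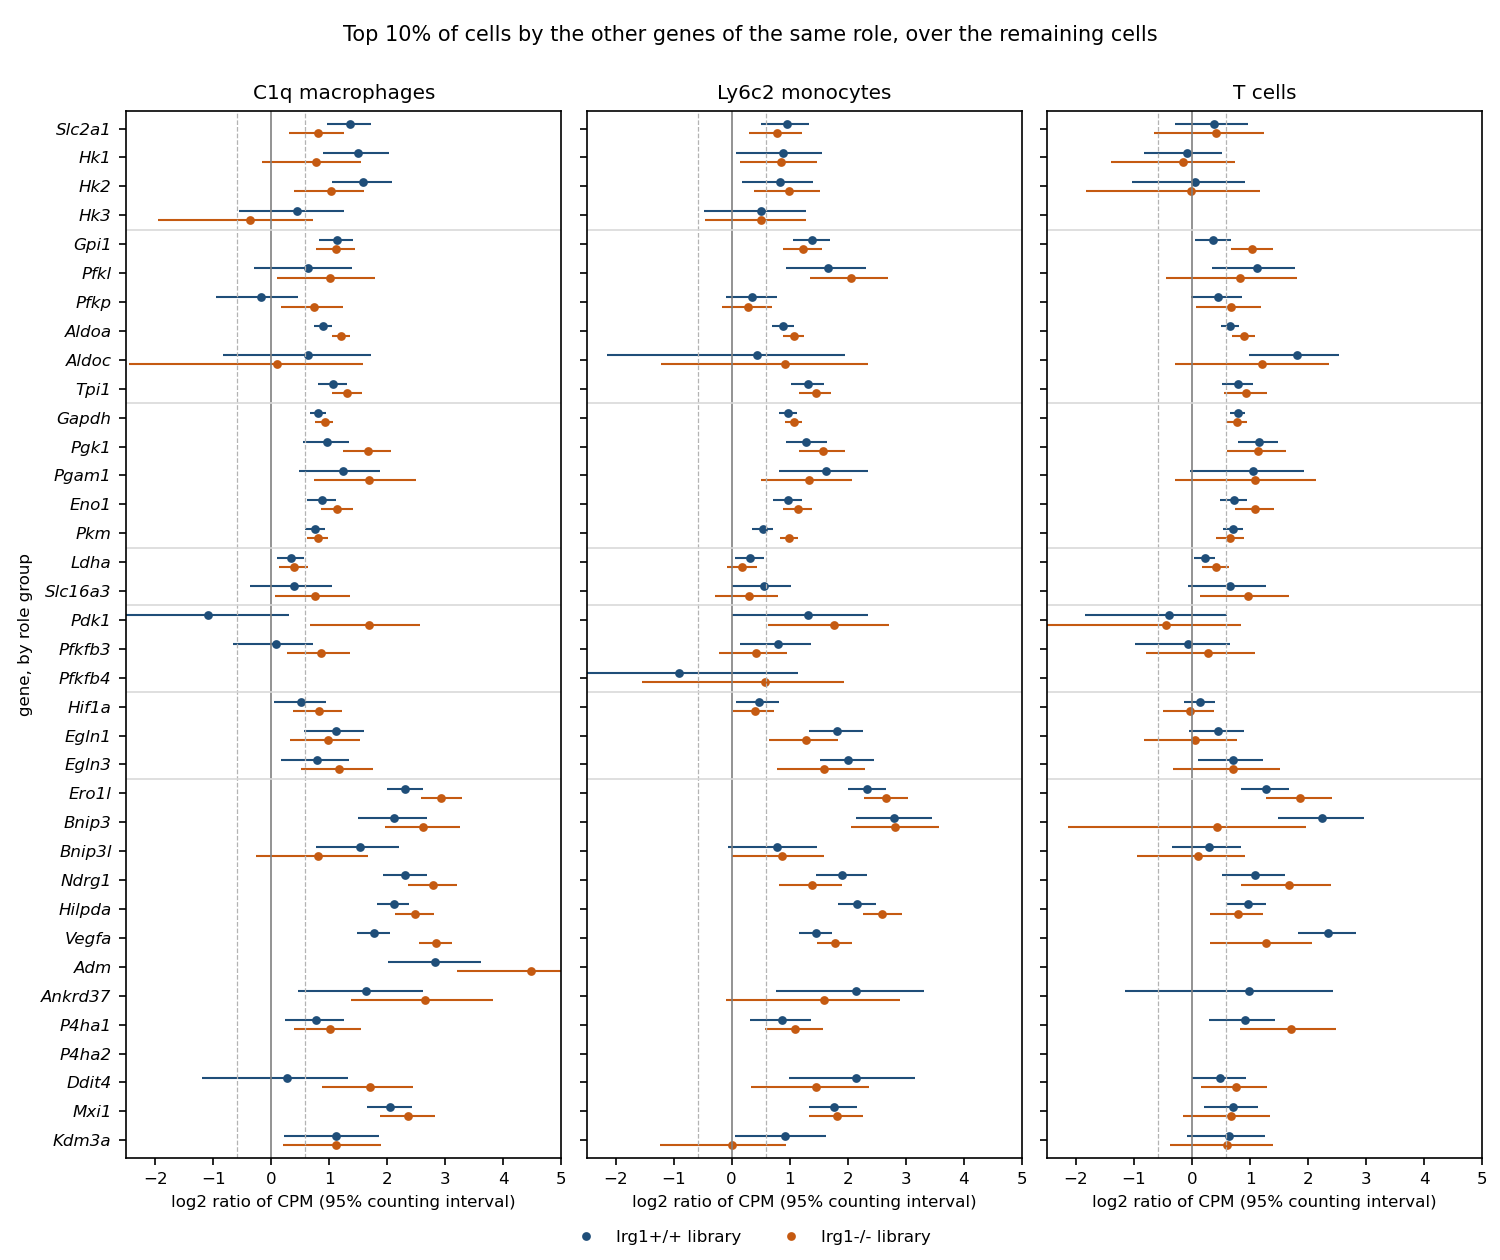
Log2 ratio of the top 10% of cells, ranked by the other genes of the same role, over the other cells, for each of the 36 genes and the 2 libraries in C1q macrophages, Ly6c2 monocytes and T cells (3 panels, cells thinned to 2000 UMIs). Bars are 95% counting intervals clipped at the axis limits, and dashed lines mark 1.5-fold. A gene under 20 UMIs or with 0 UMIs in a group has no point. Hypoxia targets lie farthest right in C1q macrophages and Ly6c2 monocytes, where the points of Hk3 lie inside the dashed lines.

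Between roles, C1q macrophages in the top 10% by hypoxia targets had 12 and 15 of the 17 glycolysis genes higher, and a summed glycolysis level of 16190 against 8383 CPM and 15990 against 6855 CPM. Genes of the same pathways outside the 36 were read in these cells from lists. Of the other known hypoxia targets, 10 of the 20 counted in the Irg1+/+ library and 10 of the 19 counted in the other were higher, with summed levels of 7688 against 4890 CPM and 7421 against 4831 CPM. Of 7 counted genes of the pentose phosphate pathway and gluconeogenesis, 0 were higher in either library, close to the 5.74% and 6.55% of all genes, and 2 and 1 were lower, against 6.77% and 7.35%, and their sum was 652.8 against 980.8 CPM and 600 against 935.9 CPM. Other glycolytic and transport isoforms had 1 of 6 and 1 of 8 higher, and partners of oxygen sensing, such as Vhl and Arnt, 2 of 9 and 2 of 10. Most glycolysis genes were thus higher in the macrophages that were rich in hypoxia targets. Nos2, nitric oxide synthase, was at 549 against 56.0 CPM and 471 against 49.8 CPM.

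Other measures moved with this ranking. Dissociation stress genes such as Fos and Hspa1a were at 10810 against 6852 CPM and 12140 against 7850 CPM. The 7 melanocyte genes Mlana, Pmel, Dct, Tyr, Tyrp1, Mitf and Gpnmb were at 1056 against 565 CPM and 936 against 295 CPM, and Gpnmb, which macrophages also express, was their most abundant gene in monocytes and macrophages. The 46 and 5 melanocyte-gated cells had 21170 and 18430 CPM of the 5 genes without Mitf and Gpnmb. In those cells of the Irg1+/+ library Gapdh was at 5562 CPM, Ero1l at 1067 CPM and Egln3 at 32.3 CPM. The part of dissociation stress and of melanocyte RNA in the result was not tested.

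The same reading was made in Ly6c2 monocytes and T cells, which share no cell with the C1q macrophages. In Ly6c2 monocytes 25 and 23 of the 34 genes counted were higher and 0 lower, with 22 higher in both libraries and median log2 ratios of 0.97 and 1.12. Pfkfb3 was again ranked at 0 UMIs, in both libraries, and 24 and 23 genes were higher without it. The share of all genes outside each group that was higher, in the order of rankings used above, was 3.44%, 4.47%, 4.18%, 3.86%, 2.3%, 4.27% and 5.31% in the Irg1+/+ library and 3.24%, 4.33%, 4.33%, 3.54%, 2.59%, 2.81% and 5.13% in the other. Bnip3, a mitophagy receptor, stood at 240 against 34.5 CPM and 143 against 20.3 CPM, log2 ratios of 2.80 (2.14 to 3.45) and 2.82 (2.05 to 3.57). Egln3 had 2.01 (1.53 to 2.45) and 1.59 (0.78 to 2.30), Ero1l 2.34 and 2.66, and Pfkl, the liver isoform of phosphofructokinase, 1.66 and 2.05. Monocytes in the top 10% by hypoxia targets had 14 and 15 of 17 glycolysis genes higher, at 13470 against 6612 CPM and 11030 against 5263 CPM in sum. The pentose phosphate and gluconeogenesis genes had 0 higher, and 2 and 1 of 7 lower, against 6.02% and 4.14% of all genes. Dissociation stress genes were at 7643 against 4365 CPM and 7332 against 6314 CPM in these monocytes, and the 7 melanocyte genes at 480.5 against 341 CPM and 224.5 against 103 CPM. Their part was not tested.

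T cells were read in the same way. Of the 32 and 31 genes counted, 16 and 15 were higher and 0 lower, 11 of them in both libraries, with medians of 0.70 and 0.76. The share of all genes outside each group that was higher was 3.23%, 3.77%, 4.22%, 4.7%, 2.2%, 4.09% and 4.47%, and 2.42%, 3.33%, 3.88%, 5.04%, 2.32%, 4.65% and 3.65%, in the same order of rankings. Vegfa stood at 237 against 46.9 CPM in the Irg1+/+ library, with log2 ratios in the 2 libraries of 2.34 (1.82 to 2.83) and 1.27 (0.31 to 2.07), and Ero1l had 1.28 and 1.87. The 11 included Gapdh, Pgk1, Eno1, Pkm, Aldoa and Tpi1 of glycolysis. T cells in the top 10% by hypoxia targets had 1 and 4 of 16 counted glycolysis genes higher, at 8942 against 6711 CPM and 8940 against 6864 CPM in sum. Ties at the limit were more common than in C1q macrophages, with a median of 74 and 44 tied cells per gene. The top 10% held 112 and 58 T cells, so a larger part of it was filled at random. Pfkfb3 was again ranked at 0 UMIs in both libraries, and 16 and 15 genes were higher without it. Dissociation stress genes were at 3795 against 3244 CPM and 4974 against 3654 CPM, and their part was not tested. The difference between T cells and myeloid cells was not tested either.

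Between macrophages and monocytes as a whole, how many of these genes were higher depended on the setting. With C1q macrophages set over Ly6c2 monocytes, 4 and 7 genes were higher, against 20.5% and 17.3% of all genes, and 4 and 0 were lower, against 8.73% and 6.84%. With every cell thinned to 2000 UMIs, 8 and 12 of the 35 genes counted were higher, against 13.4% and 11.9% of all genes, and without cells with a melanocyte UMI 8 of 35 and 11 of 36, against 10.3% and 14%. The mean of per-cell CPM gave 5 and 12, against 19.6% and 17.1%, whereas TMM factors moved the 7 of the library labelled Irg1-/- to 3, against 12.7%. The median log2 ratios of 0.15 and 0.31 stood beside 0.17 and 0.15 for all genes. Only 3 genes were higher in both libraries. Pdk1 was at 56.3 against 27.2 CPM and 43.6 against 26.4 CPM, log2 ratios of 1.05 (0.77 to 1.34) and 0.72 (0.45 to 1.00). Adm was at 27.7 against 8.90 CPM and 13.1 against 2.62 CPM, and P4ha2, a collagen prolyl hydroxylase, at 9.35 against 2.82 CPM and 7.02 against 1.80 CPM. The genes that were lower in macrophages of the Irg1+/+ library were Pfkp, Slc16a3, Pfkfb4 and Hif1a. Hif1a was at 224 against 351 CPM there and at 223 against 329 CPM in the other library, log2 ratios of −0.65 (−0.75 to −0.56) and −0.56 (−0.65 to −0.47), the second just under 1.5-fold. Of 22 counted hypoxia targets outside the 36, 7 and 9 were higher in macrophages and 1 and 0 lower. Ak4, a mitochondrial adenylate kinase, was at 25.8 against 13.2 CPM and 17.6 against 8.84 CPM, log2 ratios of 0.95 (0.56 to 1.39) and 0.98 (0.52 to 1.47), and Car9, carbonic anhydrase 9, at 14.3 against 7.60 CPM and 11.2 against 3.77 CPM. Pentose phosphate and gluconeogenesis genes had 1 and 0 of 8 higher, and partners of oxygen sensing 0 of 11 in either library. Nos2 was at 106 against 67.3 CPM and 79.4 against 45.0 CPM, and Acod1 at 101 against 166 CPM and 139 against 149 CPM.

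Neutrophils had more of several hypoxia genes than monocytes and macrophages in both libraries, and of all 4 glucose entry genes in the library labelled Irg1-/-. Of the 36 genes, 10 and 18 were higher, against 8.24% and 9.16% of all genes, and 3 and 3 were lower, against 10.7% and 24.1%. The median log2 ratios were 0.34 and 0.58, against −0.06 and −0.53 for all genes, so that in the library labelled Irg1-/- equal CPM lay above the middle of all genes. The genes higher in both libraries were 9, namely Hk1, Slc16a3, Egln3, Ero1l, Bnip3l, Hilpda, Vegfa, Ankrd37 and Kdm3a. With cells thinned to 2000 UMIs, which left 12 and 50 neutrophils, Vegfa reversed in the Irg1+/+ library (log2 ratio −0.71) and Ankrd37 in the other (−0.04), and 10 of the 13 calls of the Irg1+/+ library and 8 of the 21 of the other were lost. Egln3 stood at 774 against 152 CPM and 946 against 89.7 CPM, log2 ratios of 2.35 (1.99 to 2.68) and 3.40 (3.2 to 3.59). Hilpda stood at 1186 against 354.5 CPM and 1420 against 221 CPM, log2 ratios of 1.75 (1.46 to 2.01) and 2.68 (2.53 to 2.83). Slc16a3, the lactate exporter, stood at 433 against 145 CPM and 326 against 132 CPM, log2 ratios of 1.60 (1.10 to 2.02) and 1.32 (0.99 to 1.62). None of the 5 lower glycolysis genes was higher in either library, where 8.24% and 9.16% of all genes were higher. Gapdh was at 1403 against 1956 CPM and 1119 against 1523 CPM, log2 ratios of −0.47 (−0.73 to −0.24) and −0.44 (−0.61 to −0.28). Slc2a3, the neuronal-type glucose transporter Glut3 and not one of the 36, was at 227 against 18.2 CPM and 243 against 16.4 CPM.

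**Figure D3:**
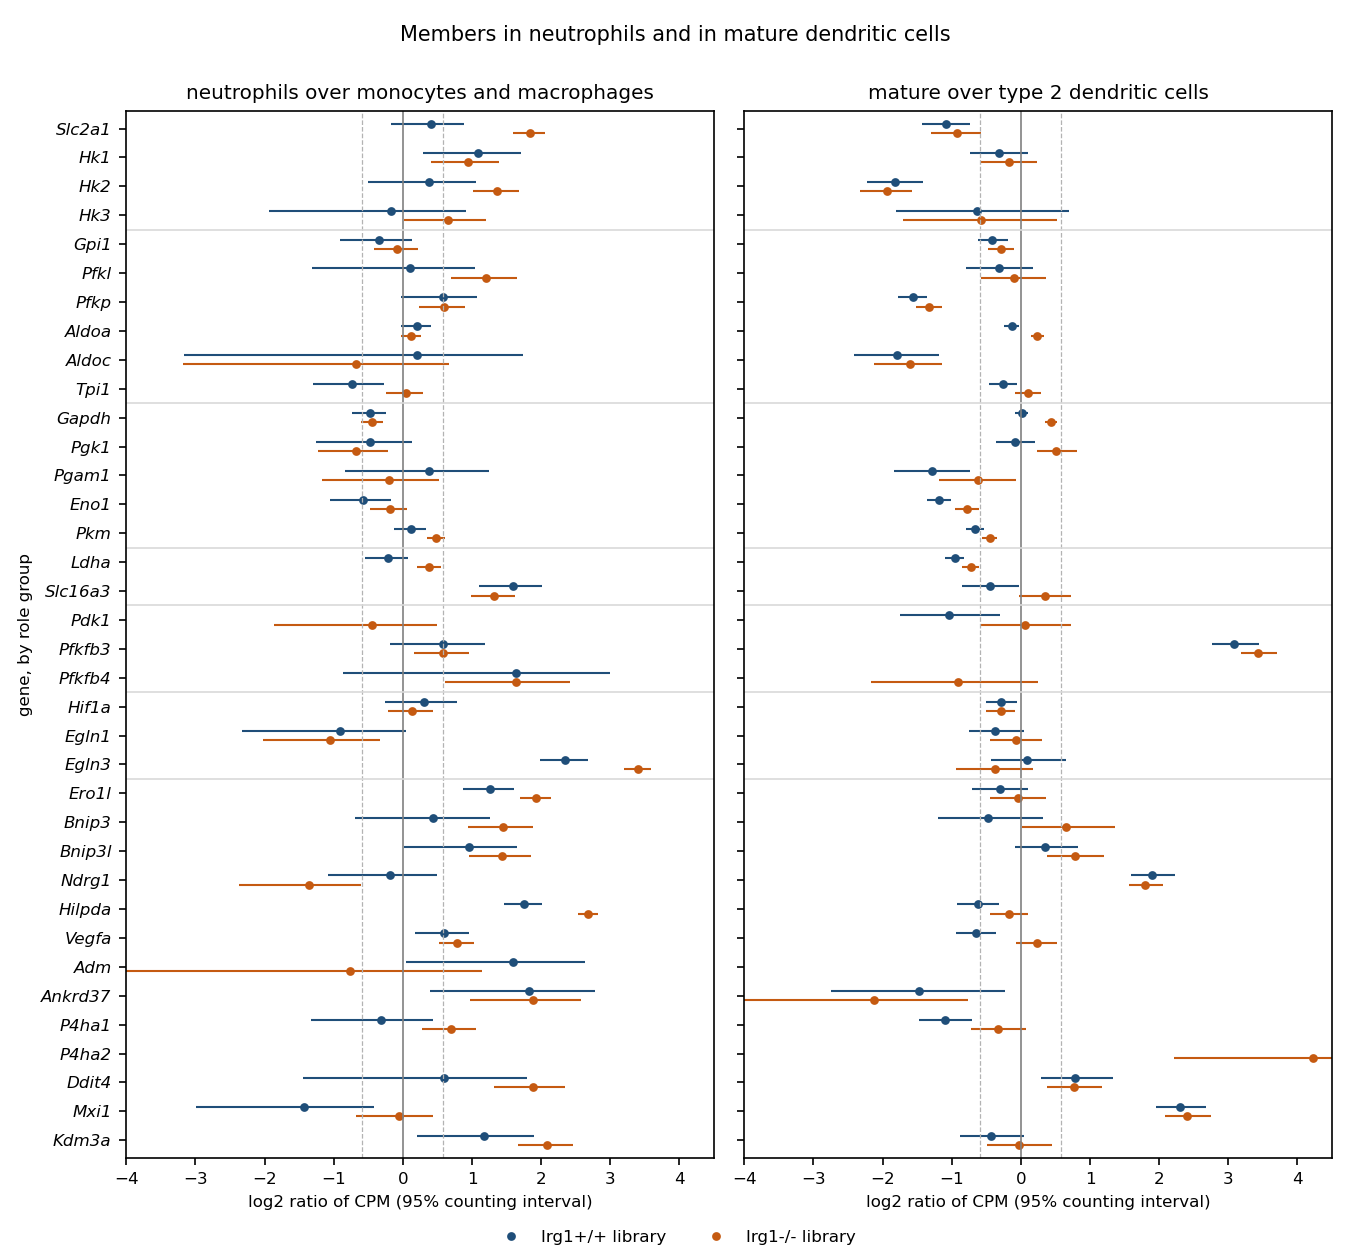
Log2 ratio of neutrophils over monocytes and macrophages, and of mature over type 2 dendritic cells, for each of the 36 genes and the 2 libraries. Bars are 95% counting intervals clipped at the axis limits, and dashed lines mark 1.5-fold. A gene under 20 UMIs or with 0 UMIs in a group has no point. Egln3 and Hilpda stand out on the left, and Pfkfb3, Mxi1 and Ndrg1 on the right in both libraries. The point farthest right is P4ha2 of the library labelled Irg1-/-, on 34 against 1 UMIs.

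Some genes were higher in neutrophils of the library labelled Irg1-/- and not past the limit in the other. Slc2a1 stood at 320 against 245 CPM and 627 against 176 CPM, log2 ratios of 0.41 (−0.17 to 0.89) and 1.84 (1.60 to 2.06), and Hk2 had 0.38 (−0.51 to 1.06) and 1.36 (1.01 to 1.68). Pdk1 had 0 UMIs in the 54 neutrophils of the Irg1+/+ library, against 47.2 CPM in monocytes and macrophages. A limit of 3 UMIs for a count of 0 allows up to 30.9 CPM. The interval of the ratio is 2-sided and therefore a wider limit, and it reached up to 0.807. In the library labelled Irg1-/- Pdk1 was at 25.4 against 37.1 CPM. P4ha2 had 0 UMIs in neutrophils of both libraries, where a limit of 3 UMIs allows up to 30.9 and 10.9 CPM. It was under that limit in monocytes and macrophages as well, at 7.42 and 5.10 CPM. Neutrophils had 9656 and 13960 CPM of dissociation stress genes, against 5972 and 7091 CPM in monocytes and macrophages, and 206 and 39.9 CPM of the 5 melanocyte genes, against 174 and 66.4 CPM. Their part in these ratios was not tested.

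Mature dendritic cells had less of several glycolysis genes than type 2 dendritic cells, while hypoxia targets went both ways. Of the 33 and 35 genes counted, 4 and 7 were higher, against 16.6% and 16.5% of all genes, and 13 and 8 were lower, against 23.8% and 25.9%. None of the 17 glycolysis genes was higher in either library, and 8 and 7 were lower. Hk2 was at 36.4 against 129 CPM and 37.0 against 143 CPM, log2 ratios of −1.82 (−2.23 to −1.42) and −1.94 (−2.33 to −1.58). Ldha was at 433 against 838 CPM and 409 against 674 CPM, log2 ratios of −0.95 (−1.09 to −0.82) and −0.72 (−0.85 to −0.60). Slc2a1, Pfkp, Aldoc, Pgam1, Eno1 and Ankrd37 were also lower in both. The regulator Pfkfb3 ran the other way, at 685 against 80.3 CPM and 793 against 73.3 CPM, log2 ratios of 3.08 (2.76 to 3.44) and 3.43 (3.18 to 3.70). Ndrg1 (351 against 93.7 CPM and 327 against 93.3 CPM) and Mxi1 (352 against 71.0 CPM and 269 against 50.6 CPM) were higher with it, as was Ddit4 (70.0 against 40.1 CPM and 74.9 against 43.9 CPM), while Egln3, at log2 ratios of 0.09 (−0.43 to 0.65) and −0.38 (−0.94 to 0.18), and Bnip3, at −0.47 (−1.20 to 0.32) and 0.66 (0.02 to 1.36), were not higher in both. Hilpda, Vegfa and P4ha1 were lower in the Irg1+/+ library, at log2 ratios of −0.62 (−0.92 to −0.31), −0.65 (−0.94 to −0.36) and −1.10 (−1.48 to −0.70), and did not pass the limit in the other, at −0.17, 0.23 and −0.33. In the library labelled Irg1-/- P4ha2 was higher on 34 against 1 UMIs, log2 ratio 4.22 (2.21 to 10.13). It had too few UMIs to be counted in the Irg1+/+ library. Bnip3l had log2 ratios of 0.35 (−0.09 to 0.82) and 0.78 (0.38 to 1.20), past the limit in the second library only. Dissociation stress genes were lower in mature than in type 2 dendritic cells, at 2711 against 4669 CPM and 3345 against 6083 CPM, and their part was not tested.

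The 2 libraries were compared last, within each class of at least 50 cells in both. No replicate stands behind these ratios, Acod1 was present in both libraries, and genotype, mice, tumor pieces and library preparation cannot be told apart. In monocytes and macrophages 6 of the 36 genes were lower in the library labelled Irg1-/- and 0 higher, against 5.24% and 3.06% of all genes. The median log2 ratio was −0.36, against −0.05 for all genes, and 4 of the 36 had a ratio above 1. The 6 were Egln3, Ero1l, Ndrg1, Hilpda, Adm and Mxi1. With marker thresholds doubled, Egln3 (−0.57), Ndrg1 (−0.57) and Mxi1 (−0.47) no longer reached 1.5-fold. Ero1l was at 168 against 277 CPM, log2 ratio −0.72 (−0.79 to −0.65), and Egln3 at 89.7 against 152 CPM, log2 ratio −0.76 (−0.86 to −0.67). Adm was at 9.24 against 22.0 CPM, log2 ratio −1.25 (−1.54 to −0.97). Against those 5.24% and 3.06% of all genes, none of the 17 glycolysis genes passed the limit. Their log2 ratios were all below 0, with a median of −0.32, and some lay within counting error, such as Hk3 at 60.5 against 64.0 CPM, log2 ratio −0.08 (−0.21 to 0.05). Hif1a did not differ beyond counting error, at 272 against 271 CPM, log2 ratio 0.01 (−0.05 to 0.07).

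Within monocytes and macrophages the difference lay in several classes. Ly6c2 monocytes had 7 genes lower, against 3.61% of all genes, with Egln3 at 51.6 against 115 CPM, log2 ratio −1.15 (−1.36 to −0.95). C1q macrophages had 4 lower (Ndrg1, Hilpda, Adm and Mxi1), against 4.54%, with a median log2 ratio of −0.31. Remaining C1q macrophages had 14 lower, against 4.2%. Egln3 in those cells was at 98.3 against 206 CPM, log2 ratio −1.07 (−1.30 to −0.84), Ero1l at 186 against 417 CPM, a ratio of 0.446 (0.398 to 0.499), and Adm at 23.3 against 63.8 CPM, a ratio of 0.368 (0.264 to 0.501). MHC class II-high macrophages had 7 lower, against 3.16%, though Egln3 was at 73.6 against 73.0 CPM there. Mrc1-high macrophages had 7 lower, against 5.74%, and 1 higher, Slc16a3, against 4.93%, at 126 against 79.1 CPM, log2 ratio 0.67 (0.28 to 1.05). Mgl2 macrophages had 0 lower, against 3.94%, with Egln3 at 107 against 111 CPM, log2 ratio −0.04 (−0.38 to 0.28). Egln3 thus fell short of its Irg1+/+ level in some myeloid classes and not in others. NK cells had 2 lower, Egln3 and Ero1l, against 3.54%, with Egln3 at 35.8 against 82.5 CPM, log2 ratio −1.20 (−1.66 to −0.75). T cells had 0 lower and 0 higher, against 3.73% and 1.72%, with a median log2 ratio of −0.12. Within them, CD8 T cells had 4 lower, against 4.43%, which were Ero1l at 108 against 180 CPM, log2 ratio −0.73 (−1.05 to −0.44), Bnip3 at 9.47 against 35.0 CPM, Vegfa at 50.2 against 94.0 CPM and Ndrg1 at 51.2 against 77.7 CPM. Cycling T cells had 1 lower (Vegfa), against 4.14%, CD4 T cells 1 (Slc2a1), against 3.89%, and regulatory T cells 0, against 4.38%. Neutrophils had 3 higher (Slc2a1, Hk2 and Ddit4), against 4.11%, and 1 lower (Ndrg1), against 7.12%, of the 31 genes counted. Whether classes differed in these ratios was not tested.

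**Figure D4:**
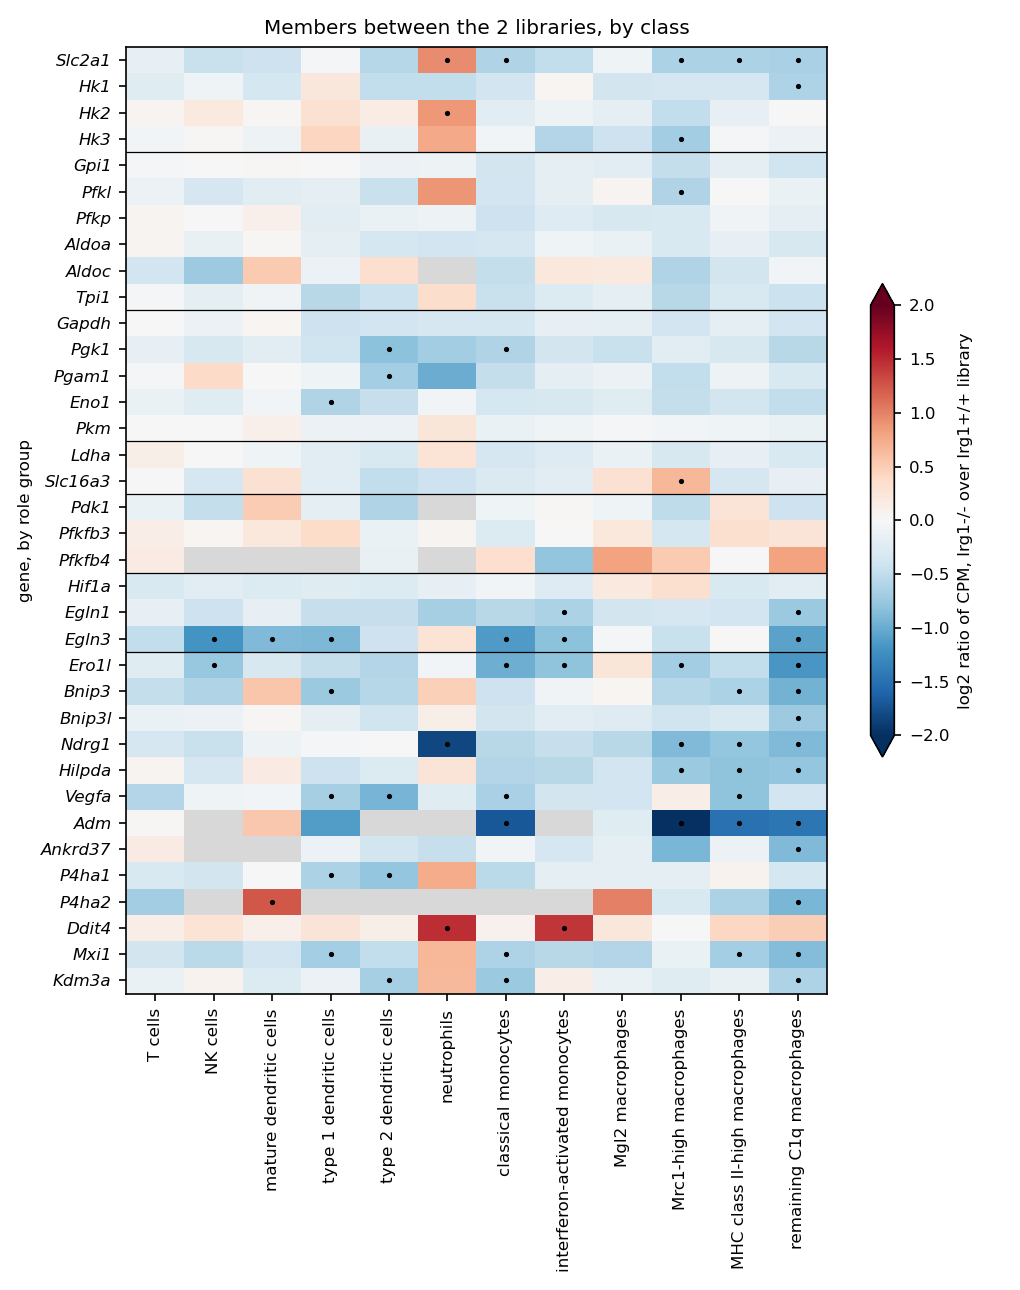
Log2 ratio of the library labelled Irg1-/- over the Irg1+/+ library for each of the 36 genes (rows) in the main classes with at least 50 cells in both (columns). Colours are clipped at 2 in either direction, dots mark ratios of at least 1.5-fold whose interval leaves out 1, and grey cells had under 20 UMIs; the hypoxia target rows are mostly lower across monocyte and macrophage classes, while the column of all T cells has no dot and that of NK cells has 2.

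Melanocyte genes were also less abundant in the library labelled Irg1-/-. The 5 without Gpnmb and Mitf stood at 174 against 66.4 CPM in monocytes and macrophages and at 160 against 40.3 CPM in T cells, Irg1+/+ first. All 7 melanocyte genes stood at 627 CPM in monocytes and macrophages of the Irg1+/+ library and 291 CPM in the other, with Gpnmb at 389 and 179 CPM, Dct at 80.0 and 29.8 CPM and Pmel at 39.2 and 14.9 CPM. In T cells they stood at 281 and 87.1 CPM. Melanocyte-gated cells numbered 46 and 5. Among cells without a UMI of Mlana, Pmel, Dct, Tyr or Tyrp1, 7 of the 36 genes were lower in monocytes and macrophages of the library labelled Irg1-/-, against 2.71% of all genes, and 4 of the 6 named above were among them. This filter kept 896 of the 2186 monocytes and macrophages of the Irg1+/+ library and 1571 of the 2180 of the other. The cells compared were therefore selected unequally. The part of this selection and of the remaining melanocyte RNA was not tested. Nos2 was also lower, at 69.1 against 117 CPM. Dissociation stress genes went the other way, at 5972 CPM in monocytes and macrophages of the Irg1+/+ library and 7091 CPM in the other. In Ly6c2 monocytes they stood at 4760 and 6323 CPM, and in neutrophils at 9656 and 13960 CPM. Their part was not tested either.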

How the data were processed

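Cd45+ cells of B16-F10 tumors were measured in 2 single-cell libraries, 1 per genotype and each pooled from 3 mice. The authors trimmed reads with fastp, listed barcodes with UMI-tools and mapped them with STAR (mouse genome, Ensembl release 100). The submitters' processing notes also name CASAVA 1.8, Seurat and build GRCm38. The authors deposited unnormalized UMI counts of every gene in every cell, and strand settings are not given in the sources used here.

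Cells with over 200 genes and at most 10% mitochondrial UMIs were kept (6284 and 5794 cells), and mitochondrial genes were left out. Classes were gated by summed marker UMIs, with thresholds set on the markers' distributions after the files were seen. At least 3 marker UMIs were asked for, except in the CD8, CD4 and Foxp3 gates of T cells, where any UMI met the minimum. Cells passing the gates of 2 lineages (356 and 331) and ungated cells (1046 and 832) entered no class, and no doublet caller was run. UMIs were summed per class and scaled to CPM, with exact Poisson intervals, shares with Clopper-Pearson intervals, and ratios with exact conditional binomial intervals and a pseudocount of 0.5 UMIs. Intervals and limits cover counting error only. Ratios were computed for all genes with at least 20 UMIs. The 36 genes, the lists and the comparisons were chosen with earlier results of these data known. Genes named are those past 1.5-fold in both libraries and the extremes of each role, with others named where they give a contrast. A planned comparison within macrophages is not reported here. Alternatives were filters, gates, thinning to 2000 UMIs, per-cell means, TMM scaling, UMI minimums and pseudocounts. Those on melanocyte UMIs, shared barcodes, Ly6c2 monocytes and T cells were chosen after seeing the data. Python 3.11.15 with numpy 2.4.6, pandas 2.3.3, scipy 1.17.1 and matplotlib 3.10.9, and R 4.3.3 with edgeR 4.0.16 for TMM factors, were used, and the code was tested on simulated data.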

Additional observations from a re-analysis of the deposited data

Results flagged for a closer look

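The library labelled Irg1-/- over the Irg1+/+ library gave ratios of opposite direction for the same gene in different classes. Bnip3l had a log2 ratio of −0.72 in remaining C1q macrophages (56.5 against 93.4 CPM) and of 1.47 in B cells (115 against 39.2 CPM). B cells were few, at 59 cells with 152908 UMIs in the Irg1+/+ library and 63 cells with 165394 UMIs in the other. P4ha2 had a log2 ratio of −0.91 in remaining C1q macrophages (7.78 against 14.8 CPM) and of 1.24 in mature dendritic cells. Slc2a1 had a log2 ratio of −0.65 in remaining C1q macrophages (216 against 338 CPM) and of 0.95 in neutrophils. In cycling over CD8 T cells, Bnip3 had a log2 ratio of −0.78 in the Irg1+/+ library (20.4 against 35.0 CPM) and of 1.06 in the library labelled Irg1-/- (20.6 against 9.47 CPM). Each of these differences was not tested, since each class is 1 pooled library per genotype.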

How the results depend on the processing

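The count of lower genes between the libraries ran from 4 to 8 over all settings. For C1q macrophages over Ly6c2 monocytes of the Irg1+/+ library the count moved from 4 (20.5% of all genes) to 7 without the top 5% of cells by UMIs (16.1%), to 8 with cells thinned to 2000 UMIs (13.4%) and to 8 without cells with a melanocyte UMI (10.3%). In the library labelled Irg1-/- it moved from 7 (17.3%) to 12 when thinned (11.9%), to 12 with the mean of per-cell CPM (17.1%), to 3 with TMM factors (12.7%) and to 11 without melanocyte UMIs (14%). For Irg1+/+ neutrophils it moved from 10 (8.24%) to 4 when thinned (5.26%), where 12 cells were left. From cell to cell it moved from 29 to 15 in T cells in place of C1q macrophages of the library labelled Irg1-/-. Single genes that reversed were Mxi1 (0.28 with marker thresholds doubled), Vegfa (−0.71, thinned), Adm (−0.12, thinned) and Pdk1 (0.12 with a pseudocount of 5 UMIs) in Irg1+/+ neutrophils, Pgam1 (−0.01, thinned) in macrophages over monocytes and Ankrd37 (−0.04, thinned) in neutrophils, both of the library labelled Irg1-/-. The cause of these moves was not tested. Relative to CPM, TMM factors moved the median of all genes by 0.39 in neutrophils of the library labelled Irg1-/- and by −0.13 in C1q macrophages over Ly6c2 monocytes. No paired analysis was possible because each genotype is 1 library. Depth limits the rare genes Pfkfb4, P4ha2, Adm and Ankrd37 and the neutrophil values.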
